A study of Mus musculus with 6 samples.

Results

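The Dlk1 to Dio3 locus is an imprinted stretch of mouse chromosome 12, and its transcripts were followed here in brain after transient ischemia. Every row of the deposited expression table that overlapped chr12:109450000-110300000 (mm10) and had a summed count of at least 30 over the 6 libraries was taken. This gave 91 of the 56826 rows of the table, and 43486 rows of the whole table reached the same summed count. The window held 116 rows in all, of which 25 were below the minimum and 1 of these had no count. Mir154, with a summed count of 31, was the member nearest to the minimum, and Mir543, with 29, was the nearest row left out. Gene symbols named 54 of the members, and the other 37 were rows of FANTOM3 cDNA clones. The members were thus selected on position and on the level summed over both groups, and these levels are given as a description. The gene rows were 8 long genes, 39 microRNA (miRNA) hairpins and 7 small nucleolar RNAs (snoRNAs). Most members lay on the plus strand (88), and Rtl1, Mir3071 and Dio3os lay on the minus strand.

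At this locus the protein-coding genes Dlk1, Rtl1 and Dio3 are active on the paternal chromosome, while Meg3, Rian and Mirg are noncoding RNAs made from the maternal chromosome. The maternal RNAs are transcribed in the same direction and carry in their introns and exons large clusters of miRNAs and of C/D box snoRNAs, which guide chemical marks onto other RNAs. Several of the miRNAs lie antisense to Rtl1 and match its transcript perfectly. In the adult brain the noncoding RNAs are known mainly from neurons.

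The mice were adult male C57BL/6 animals of 8 to 9 weeks, with no further allele named in the labels, and all were anaesthetised with chloral hydrate for a neck operation. In the ischemia/reperfusion (I/R) group a filament closed the middle cerebral artery for 1 h, and tissue was taken after 6 h of reperfusion. Sham mice had the operation without the filament, and the 2 groups had 3 libraries each. The labels name the tissue only as brain, with no region or side. They do not state whether each library is a separate animal, and p-values therefore cover only the spread between these libraries, which may be technical.

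The libraries held 45425867 to 49686109 counts. Levels are given as CPM, counts scaled to 1e6 of the TMM-scaled library total, and levels of different genes are compared only as the deposited RPKM, which also divides by row length. The tissue label was checked with 10 neuron markers, which summed to 4300 to 4336 CPM in sham against 3821 to 4489 CPM in I/R, with no marker at 0 in any library. The summed level of 10 astrocyte markers was 5548 to 5719 CPM in sham against 4661 to 5155 CPM in I/R, without overlap. Of these 7 had a negative log2 fold change, 4 of them with an unadjusted p under 0.05 in edgeR. Over all rows tested 6.9% were lower at that p. Gfap, Slc1a2 and Sox9 had positive log2 fold changes (0.14, 0.01 and 0.35). None of the 10 was at 0 in any library or passed in edgeR. Gjb6, a gap junction gene of astrocytes, had an adjusted p of 0.0032 in DESeq2, which called 0.707% of rows lower. The part of these markers in the differences at the locus was not tested. Some marker sums differed widely between the libraries of a group. The summed level of 5 choroid plexus markers was 413, 17.8 and 1171 CPM in I/R replicates 1, 2 and 3, against 563 to 770 CPM in sham. That of 8 oligodendrocyte markers was 3687, 4679 and 9401 CPM in the same libraries, against 4596 to 5594 CPM in sham. In such bulk tissue, fewer cells of a type and less RNA per cell cannot be told apart.

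The sequences printed here belong to rows described below, and no result rests on them. They are the mature miRNAs of 8 hairpin rows from Meg3 to Mirg, chosen after their values were seen. Promoters are also printed for Meg3 and Dio3, genes that lie apart in the locus and differed in opposite directions. RefSeq (GRCm38.p6) held sequences for all 39 miRNA rows, with 73 mature miRNAs. The miRNAs are printed in order of position with the seed, bases 2 to 8, in capitals. The first 5 hairpins (Mir770, in the Meg3 span; Mir433 and Mir127, antisense to Rtl1; Mir341 and Mir1188, in the Rian span) and Mir668 and Mir410 near and in Mirg had higher mean counts in I/R than in sham. Mir412, in Mirg, had lower counts. Other hairpins with fewer reads, such as Mir411 and Mir329, had larger log2 fold changes than Mir668 and Mir410 and are given by their counts only.
miR-770-5p: aGCACCACgugucugggccacg
miR-770-3p: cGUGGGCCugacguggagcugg
miR-433-5p: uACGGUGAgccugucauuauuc
miR-433-3p: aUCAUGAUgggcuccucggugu
miR-127-5p: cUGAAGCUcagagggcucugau
miR-127-3p: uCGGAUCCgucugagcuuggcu
miR-341-5p: cGGUCGGCcgaucgcucgguc
miR-341-3p: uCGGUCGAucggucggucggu
miR-1188-5p: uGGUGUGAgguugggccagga
miR-1188-3p: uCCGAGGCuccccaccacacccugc
miR-668-5p: gUAAGUGUgccucgggugagcaug
miR-668-3p: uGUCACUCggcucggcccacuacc
miR-412-5p: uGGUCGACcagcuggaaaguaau
miR-412-3p: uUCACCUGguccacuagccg
miR-410-5p: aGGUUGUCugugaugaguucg
miR-410-3p: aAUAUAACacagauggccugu
Among the 73 mature miRNAs 6 seeds occurred more than once. The pair miR-494-5p and miR-410-5p shared GGUUGUC, miR-370-5p and miR-1193-3p shared AGGUCAC, miR-1197-5p and miR-758-5p shared GGUUGAC, and miR-453 and miR-496a-5p shared GGUUGCC. The other 2 shared seeds were those of the neighbouring copies Mir3070a and Mir3070b, whose hairpins were identical at 84 of 89 bases, so that reads may be split between them. The rows count total RNA reads over a hairpin, and no small RNA library was analysed here, so the levels of the mature miRNAs were not measured.

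The promoter windows run from 250 bases before to 50 bases after the RefSeq start. For Meg3 the window of its upstream start is printed, on the plus strand at chr12:109540746-109541045. Its capitals mark the cyclic AMP response element letters TGACGTCA, 57 bases before the start, and a run that holds TATAAA on both strands in overlapping positions.
Meg3 promoter: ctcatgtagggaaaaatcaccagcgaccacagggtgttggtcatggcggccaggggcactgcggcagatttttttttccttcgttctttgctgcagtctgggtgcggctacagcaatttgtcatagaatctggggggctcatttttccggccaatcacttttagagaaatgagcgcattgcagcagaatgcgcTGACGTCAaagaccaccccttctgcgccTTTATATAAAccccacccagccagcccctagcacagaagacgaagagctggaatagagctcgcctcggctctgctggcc
In that of Dio3, on the plus strand at chr12:110278980-110279279, the capitals mark 4 GC boxes (GGGCGG, of which 3 are on the other strand) and TATAAA, 31 bases before the start.
Dio3 promoter: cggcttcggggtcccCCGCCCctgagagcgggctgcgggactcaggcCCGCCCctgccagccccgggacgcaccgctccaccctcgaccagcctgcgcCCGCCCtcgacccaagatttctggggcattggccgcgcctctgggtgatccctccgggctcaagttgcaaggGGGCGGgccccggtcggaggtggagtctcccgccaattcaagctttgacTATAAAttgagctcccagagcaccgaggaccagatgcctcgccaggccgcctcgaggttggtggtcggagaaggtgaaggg
Searched on both strands of all 32544 promoters with distinct sequence, TGACGTCA occurred in 1.8%, TATAAA in 13.6% and GGGCGG in 35.9%. A loose MEF2 pattern, in which the 4 middle bases may be any base, occurred in 3.7%. This pattern is wider than the MEF2 consensus. The printed Meg3 window held 13 CpG and the Dio3 window 25, beside a median of 7 over all promoters. RefSeq gave another Meg3 start, whose window at chr12:109545148-109545447 held 1 CpG and none of these 4 motifs. The windows of Dlk1, 6430411K18Rik, Rian and Mirg held none of the 4 motifs either. That of Dio3os, the antisense RNA of Dio3, held the loose MEF2 pattern once and GGGCGG at 2 places. The 4 middle bases of the MEF2 pattern match were all G, and no MEF2 site is claimed from it. A match is a description of letters and not of a factor's binding.

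After ischemia and reperfusion most rows between Meg3 and Mirg had higher counts, the main part of Rian did not differ beyond the spread between libraries, and Dio3 at the far end had lower counts. Of the 91 members 52 were higher in every I/R library than in every sham library, 2 were lower in the same way (Mir412 and Dio3), and 37 overlapped. Over all 43486 rows with the same summed count 10.8% were higher and 10.2% lower without overlap. The log2 fold change, fitted without a low-count filter so that every member has a value, was positive for 82 members and negative for 9, with a median of 0.70, beside a median of 0.03 over the 43486 rows. Clone rows were higher without overlap in 27 of 37 cases and lower in none, beside 13.0% and 7.85% of 25990 clone rows elsewhere. By kind, the median log2 fold changes were 0.65 over the 8 long genes, 0.59 over the 37 clone rows, 0.97 over the 39 miRNA rows and 0.40 over the 7 snoRNA rows. Outside the locus the medians were 0.10 for clone rows, 0.00 for miRNA rows and -0.16 for snoRNA rows. Clone rows count reads of the gene row they lie in again: 29 of the 37 overlap a long gene row on the same strand, and 4 members have counts identical to another member. The counts are therefore not over independent rows.

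Single rows rarely passed the threshold. In the edgeR quasi-likelihood test, 76 members were tested. With an unadjusted p under 0.05, 50 of them were higher and 2 lower, beside 8.73% and 6.9% of all 40170 rows tested. For 11 of the 76 a sham library, and no I/R library, was below the low-count cutoff of 0.207 CPM, and 1 had the reverse, while 60 were at the cutoff in all 6 libraries. Among the 11, Mir3070b, Mir127, AF357426, Mir882, Mir1193, Mir667 and Mir541 had an unadjusted p under 0.05, and all were higher. Mir412, which was lower, had the reverse. These rows entered the test through the group in which they were high, and their edgeR values below carry that limit. After Benjamini-Hochberg adjustment over all 40170 rows, 1 member passed an adjusted p of 0.05 in edgeR, the clone row fantom3_5330411G14 inside Mirg, beside 0.00249% of all rows called higher and 0.0% called lower. Without the filter 13 members passed, all higher, beside 0.0938% of 54371 rows higher and 0.0478% lower. DESeq2 gave an adjusted p to 53 of the 76 and called 27 higher and 1 lower (Dio3), beside 1.1% and 0.707% of 32377 rows. The number called by edgeR moved with the libraries: it was 30 higher and 1 lower without I/R replicate 1 (1.59% and 0.995% of all rows tested), 6 higher without I/R replicate 2 (0.078%), 2 higher without sham replicate 2 (0.0799%), and 0 without sham replicate 1, sham replicate 3 or I/R replicate 3. Of the 91 rows, 55 had a q under 0.05 in the authors' deposited table, 54 of them higher and 1, Dio3, lower, beside 14.7% and 9.77% of the 45851 rows listed there. The 54 include Rian, with a log2 fold change of 0.085 and a q of 1.96e-07 in the authors' test, although its groups overlapped.

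**Figure D1:**
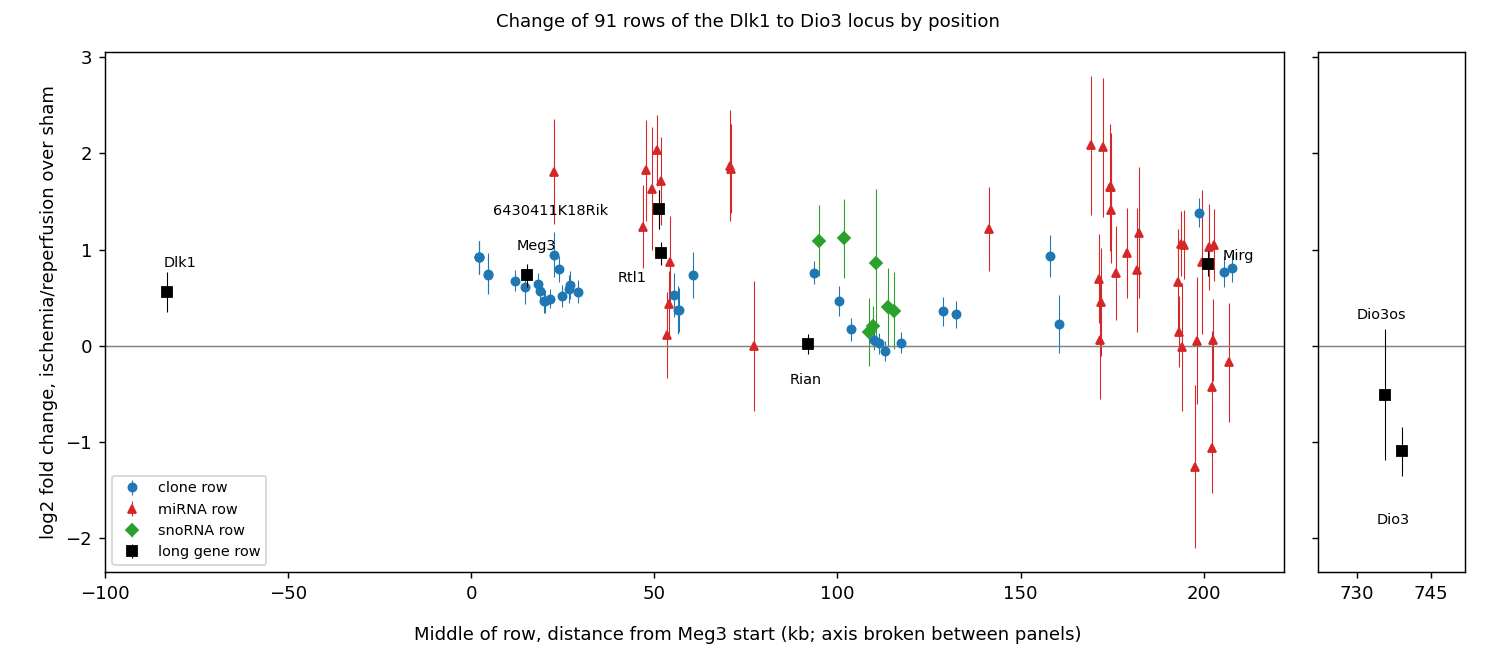
Log2 fold change of I/R over sham, fitted without a low-count filter, for each of the 91 rows (points; bars are SE, 3 libraries per group) against the distance of the row's middle from the Meg3 start in kb, with the axis broken before Dio3. Clone rows of Meg3 lie between 0.46 and 0.95, long gene rows from Dlk1 to Mirg lie above 0 with Rian at 0.02, and Dio3 lies at -1.10.

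The plot of change by position shows the order along the chromosome. The rows of the Meg3 span form a narrow band, the miRNA rows scatter widely with large errors, most later Rian rows lie near 0, and the 2 rows beyond Mirg lie below 0.

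Dlk1 (chr12:109452823-109463336, plus strand) encodes a membrane protein related to the Notch ligands that restrains differentiation in several tissues. It had 4.07, 3.69 and 3.93 CPM in sham against 5.95, 3.93 and 7.45 CPM in I/R. The sham libraries were close together, I/R replicates 1 and 3 were above them, and I/R replicate 2 lay among them. Its log2 fold change was 0.57 ± 0.21 (SE), with an adjusted p of 0.252 in edgeR. The 10 hypothalamus and thalamus markers summed to 138, 97.5 and 187 CPM in sham against 173, 111 and 228 CPM in I/R. The sum was thus also lowest in I/R replicate 2 within that group, but not every marker was. Tcf7l2, Prkcd and Lef1 were lowest in I/R replicate 1, and the others in I/R replicate 2. Prkcd had 49.3, 88.2 and 121 CPM in I/R. Of the 10 markers 8 had a positive log2 fold change, and 1, Oxt, was at 0 in I/R replicate 2. Their part in the Dlk1 values was not tested.

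Meg3 (chr12:109540996-109571729, plus strand) is a long noncoding RNA kept mainly in the nucleus and known as a growth suppressor in human tumours. It had 606, 677 and 647 CPM in sham against 851, 1177 and 1195 CPM in I/R. All 3 I/R libraries were above all sham libraries, and I/R replicate 1 was the nearest to them. The means were 644 ± 35.6 and 1075 ± 194 CPM (SD, n = 3 each), a 1.67-fold difference, and the log2 fold change was 0.74 ± 0.13 (SE). The adjusted p was 0.123 in edgeR, 4.1e-04 in DESeq2, 0.0205 in edgeR without the low-count filter and 0.0048 in edgeR without I/R replicate 1. Marker sums of microglia and neutrophils were also lowest in I/R replicate 1 within that group. The 8 microglia markers summed to 148 to 167 CPM in sham and to 153, 212 and 189 CPM in I/R. The 7 matched neutrophil markers summed to 4.44 to 6.18 CPM in sham and to 7.68, 13.1 and 13.0 CPM in I/R. Single markers differed: Sall1 of the microglia list had 8.90, 7.06 and 6.98 CPM in I/R. Mpo, at a low level, was also highest in I/R replicate 1, and Camp and Ngp were lowest in I/R replicate 2. No microglia marker was at 0 in any library, while Elane, Camp, Mpo and Ngp of the neutrophil list were at 0 in 1 or more libraries, and Elane in all 3 I/R libraries. Sums of other lists were lowest in I/R replicate 1 too. The 6 endothelial markers had 137.6, 142.4 and 157.3 CPM in I/R against 120.3 to 170.5 CPM in sham. The 6 cortex markers had 191.0, 254.8 and 225.2 CPM against 216.5 to 230.7 CPM, and the oligodendrocyte markers are given above. Neuron and astrocyte sums were lowest in I/R replicate 3, and choroid plexus, striatum, and hypothalamus and thalamus sums in I/R replicate 2. The part of any of these cells or regions in the Meg3 values was not tested.

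Inside the Meg3 span all 18 clone rows and Mir770 were higher in every I/R library. The log2 fold change of the clones, without the filter, had a median of 0.64. The 3 clones at the start of the span (fantom3_I0C0047O18, fantom3_F830003A04 and fantom3_F830206C10) share nearly all their reads. The first had 169, 192 and 186 CPM in sham against 250, 371 and 420 CPM in I/R, and differed by 0.93 ± 0.17 (SE) on the log2 scale, where the adjusted p was 0.139 in edgeR. The clone fantom3_6330403F08, the next spliced clone, had 152, 183 and 172 CPM in sham against 231, 292 and 292 CPM in I/R, with 0.69 ± 0.12 and an adjusted p of 0.123 in edgeR. Both are high in I/R replicates 2 and 3 and nearer to sham in I/R replicate 1. In the middle of the span the differences were smaller. The clones fantom3_6330404N04 and fantom3_5330428F20 had log2 fold changes of 0.47 ± 0.12 and 0.47 ± 0.13 (adjusted p of 0.160 and 0.167 in edgeR), and their I/R replicate 1 was the highest I/R library. The other clones of the span with the smallest p or the highest level were fantom3_2900058E08, fantom3_3110050O07, fantom3_6330408G06, fantom3_B230344F03, fantom3_7120472O19 and fantom3_2900016C05. Their log2 fold changes lay between 0.50 for fantom3_6330408G06 and 0.95 for fantom3_B230344F03, and the smallest adjusted p among them was 0.129 in edgeR.

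Mir770 is a hairpin within the Meg3 span and lies inside fantom3_B230344F03. Its counts were 164, 174 and 135 in sham and 225, 655 and 759 in I/R, the most of any miRNA row here. I/R replicates 2 and 3 stood far above the rest, and I/R replicate 1 just above sham. The mean level was 3.29 ± 0.474 CPM in sham against 11.6 ± 6.26 CPM in I/R (SD, n = 3 each). Its log2 fold change was 1.82 ± 0.48 (SE) and the adjusted p was 0.211 in edgeR, 0.0475 in DESeq2 and 2.5e-04 in edgeR without I/R replicate 1. Per length, Mir770 had 34.3 RPKM in sham, below the 40.1 RPKM of the clone around it, and 126 RPKM in I/R, above the 80.8 RPKM of that clone. Relative to Meg3, the log2 ratio of Mir770 was -7.62 ± 0.21 in sham and -6.71 ± 0.74 in I/R (SD, n = 3 each), with I/R replicate 1 within the sham range, a comparison chosen after its values were seen.

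**Figure D2:**
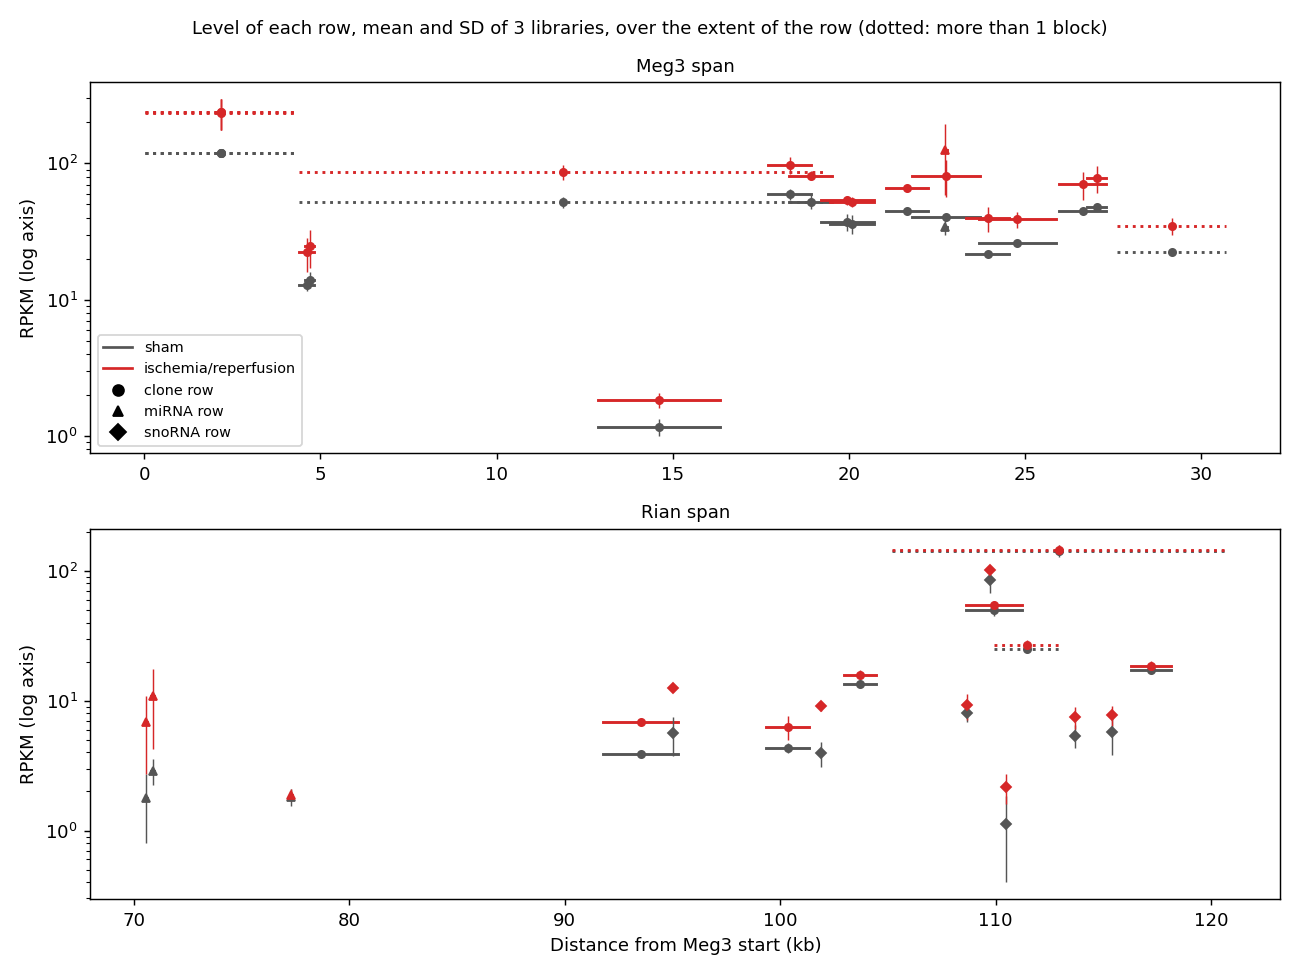
Mean RPKM (log axis; bars are SD, n = 3) of the clone, miRNA and snoRNA rows in the Meg3 span (top) and the Rian span (bottom), drawn over the extent of each row in kb from the Meg3 start, for sham (grey) and I/R (red). In the Meg3 span every I/R level lies above its sham level. In the Rian span the 2 early clones lie apart (3.89 and 6.89 RPKM for fantom3_9430047F21), and the later ones nearly coincide (143 and 145 RPKM for fantom3_5530401N18).

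In the Meg3 span of the plot of levels over row extents, the other clone rows ran from 12.8 to 120 RPKM in sham. The clone fantom3_D930023J15, whose length of 3458 bases equals its extent on the chromosome, had 1.15 ± 0.162 RPKM in sham and 1.84 RPKM in I/R. Its level was far lower than that of the other rows, and its log2 fold change was 0.62 ± 0.17 (SE), with an adjusted p of 0.174 in edgeR.

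Between Meg3 and Rtl1 lay the 2 Mir3070 copies. Mir3070a had 14, 11 and 25 counts in sham and 20, 49 and 48 in I/R. Mir3070b had 10, 3 and 7 counts in sham and 17, 25 and 29 in I/R. Mir3070b did not overlap between groups and Mir3070a did, because its I/R replicate 1 lay below sham replicate 3. Their log2 fold changes were 1.25 ± 0.45 and 1.83 ± 0.50 (SE), with adjusted p of 0.241 and 0.175 in edgeR.

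Rtl1 (chr12:109590169-109595403, minus strand) encodes a protein derived from a retrotransposon that is required in the placenta. It had 25.94, 20.48 and 27.02 CPM in sham against 49.96, 48.82 and 45.13 CPM in I/R. The I/R libraries were close together and every one was far above the sham libraries, of which replicate 2 was the lowest. The means were 24.5 ± 3.50 and 48.0 ± 2.52 CPM (SD, n = 3 each). On the log2 scale the difference was 0.97 ± 0.12 (SE), and the adjusted p was 0.0751 in edgeR. It was 5.1e-08 in DESeq2. In edgeR it was below 0.05 with upper-quartile factors (0.0450), without the low-count filter (0.0019), and without I/R replicate 1 (0.0084), I/R replicate 2 (0.0370) or sham replicate 2 (0.0289). It rose in edgeR without sham replicate 1 (0.491), sham replicate 3 (0.318) or I/R replicate 3 (0.2405).

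6430411K18Rik (chr12:109591537-109592851, plus strand) is a noncoding RNA inside the Rtl1 row on the other strand. It had 7.80, 4.85 and 7.21 CPM in sham against 15.3, 22.7 and 15.4 CPM in I/R. The groups were well apart, with sham replicate 2 lowest and I/R replicate 2 highest. The fitted log2 fold change was 1.43 ± 0.21 (SE), with an adjusted p of 0.123 in edgeR and 5.1e-08 in DESeq2. In edgeR it was 0.0177 without I/R replicate 1 and 0.0497 without I/R replicate 2. The sources used here do not say whether reads were counted by strand, so reads of Rtl1 and of the RNAs opposite to it cannot be told apart. The log2 ratio of Rtl1 to 6430411K18Rik was 1.91 ± 0.17 in sham and 1.45 ± 0.31 in I/R (SD, n = 3 each), a difference of -0.45 with a p of 0.1 in a two-sided exact permutation test, the smallest that 3 against 3 libraries allow, and 0.2 adjusted over 4 ratios.

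Of the 6 miRNA rows at Rtl1, 5 lie on the other strand from it. Mir433 had 23, 11 and 22 counts in sham and 51, 112 and 65 in I/R. Mir127, a miRNA known to be antisense to Rtl1, had 11, 9 and 6 counts in sham and 31, 34 and 21 in I/R. Mir431 had 3, 5 and 5 counts in sham and 10, 10 and 21 in I/R, too few to be tested with the filter. These 3 hairpins were higher in every I/R library. Their log2 fold changes were 2.04 ± 0.39 for Mir433 (adjusted p of 0.129 in edgeR and 9.2e-04 in DESeq2), 1.72 ± 0.43 for Mir127 (0.155 in edgeR) and, without the filter, 1.64 for Mir431 (0.281 in edgeR). Mir433 lies inside 6430411K18Rik on the same strand, so that reads of the longer RNA count in its row too, while Mir127 overlaps only the end of it. The remaining rows differed less. Mir434 had 25, 14 and 18 counts in sham and 32, 12 and 18 in I/R, and its groups overlapped fully. Mir432 and Mir3071 were higher in every I/R library, with log2 fold changes of 0.44 ± 0.31 and 0.88 ± 0.42 (adjusted p of 0.513 and 0.340 in edgeR).

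The 4 clones between Rtl1 and Rian overlap no gene row, and the groups overlapped in all of them. The clone fantom3_1110006E14 had 3.131, 3.003 and 3.121 CPM in sham against 5.734, 2.699 and 4.97 CPM in I/R. fantom3_A230052J08 and fantom3_D030062B12 had the same order, with I/R replicate 1 highest and I/R replicate 2 within or below the sham values, while in fantom3_D930029A11 I/R replicate 2 was the highest at 5.76 CPM. These clones were named after their values were seen. The 5 matched striatum markers summed to 348, 98.0 and 160 CPM in I/R replicates 1, 2 and 3. In sham replicates 1, 2 and 3 they summed to 134, 93.6 and 230 CPM, while the sham values of fantom3_1110006E14 lay close together. No marker was at 0 in any library, and their part in these values was not tested.

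**Figure D3:**
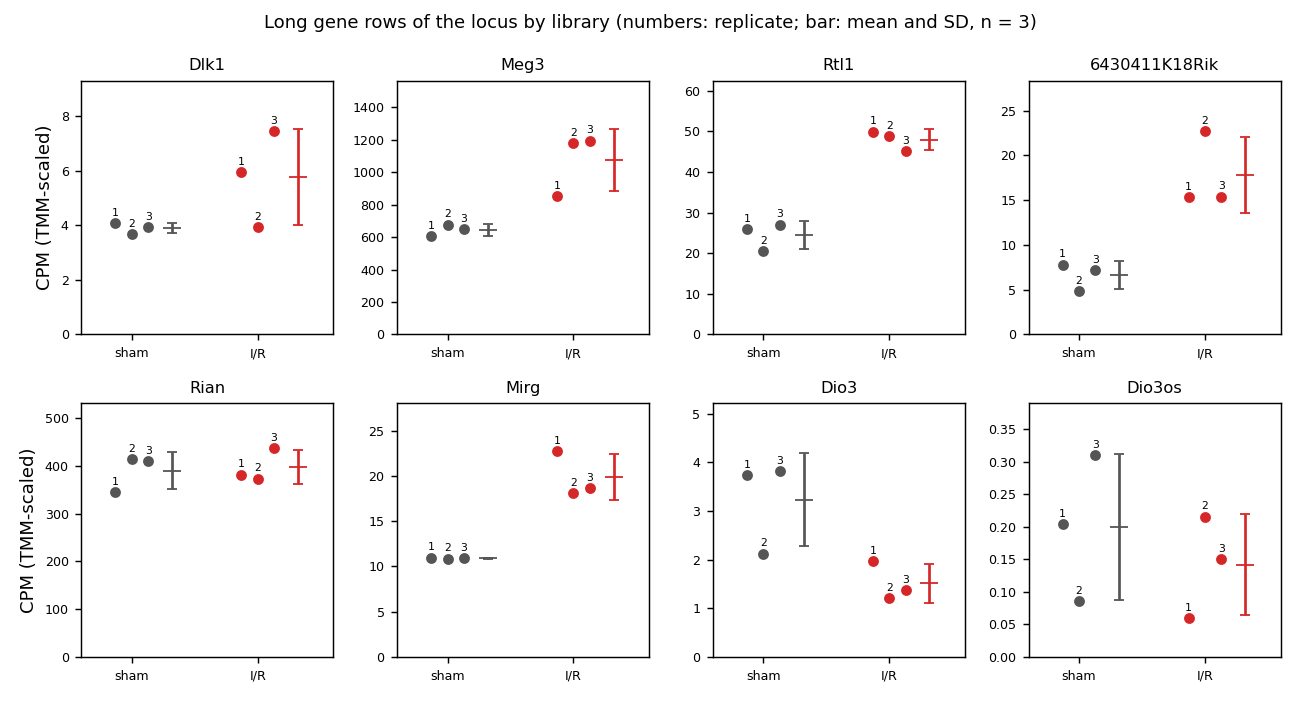
CPM of the 8 long gene rows in each library (points, numbered by replicate) with the mean and SD of each group (bars, n = 3), each panel on its own axis from 0. Meg3, Rtl1, 6430411K18Rik and Mirg are higher in all 3 I/R libraries, Dio3 is lower in all 3, and Dlk1, Rian and Dio3os overlap.

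Rian (chr12:109603945-109661711, plus strand) is the host RNA of the C/D box snoRNAs of the locus. It had 345, 415 and 411 CPM in sham against 382, 374 and 438 CPM in I/R. The groups overlapped fully, as the panels of the long gene rows show. On the log2 scale the difference was 0.03 ± 0.11 (SE), with an adjusted p of 0.919 in edgeR, and its sign changed when single libraries were left out. Relative to Meg3, Rian was lower in every I/R library: the log2 ratio of Rian to Meg3 was -0.73 ± 0.08 in sham and -1.42 ± 0.25 in I/R (SD, n = 3 each). The difference of -0.69 had a p of 0.1 in a two-sided exact permutation test, the smallest possible here, and 0.2 adjusted over 4 ratios. The scaling of a library cancels in this ratio. Of the counts of 7 long rows that do not overlap each other (6430411K18Rik left out), Meg3 took 58.6% to 60.9% in sham and 64.8% to 72.5% in I/R, and Rian 34.6% to 37.2% and 23.0% to 29.1%. Together these rows held 0.0980% to 0.109% of all counts in sham and 0.135% to 0.175% in I/R.

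Within Rian the rows differed by position. Upstream lie Mir341, Mir1188, Mir370, 2 clones and 2 snoRNAs, which had a median log2 fold change of 1.09 without the filter, and 5 of these 7 were higher in every I/R library. From the clone fantom3_C130089L09 on lie 5 clones and 5 snoRNAs, with a median of 0.16, and the groups overlapped in all 10. The boundary was chosen after the values were seen. The 2 upstream clones had 3.89 and 4.36 RPKM in sham, against 13.5 to 143 RPKM for the 5 later ones. The Rian row itself has a length of 3579 bases in the table, a small part of its extent on the chromosome.

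The upstream clone fantom3_9430047F21, a single block, had 13.89, 14.39 and 13.04 CPM in sham against 22.39, 23.64 and 24.4 CPM in I/R. The libraries were close together within each group and the groups far apart. Its log2 fold change was 0.77 ± 0.11 (SE), with an adjusted p of 0.123 in edgeR, 1.3e-05 in DESeq2 and 0.0195 in edgeR without the filter. Relative to Rian its log2 ratio was -4.82 ± 0.17 in sham and -4.08 ± 0.09 in I/R (SD, n = 3 each), with no overlap, a comparison chosen after its values were seen. The next clone, fantom3_C530021M01, had 8.51, 8.58 and 9.74 CPM in sham against 10.04, 12.11 and 15.14 CPM in I/R, a log2 fold change of 0.47 ± 0.16 (adjusted p of 0.218 in edgeR). The late clones with the highest levels did not differ beyond their spread. fantom3_5530401N18 had 297, 360 and 353 CPM in sham against 323, 305 and 354 CPM in I/R, with -0.04 ± 0.10, and fantom3_6430597C21 had 119, 141 and 140 CPM and 138, 131 and 151 CPM, with 0.07 ± 0.10 (adjusted p of 0.874 and 0.757 in edgeR).

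Mir1188 had 17, 13 and 21 counts in sham and 23, 95 and 63 in I/R. Mir341, next to it, had 11, 3 and 11 counts in sham and 10, 43 and 38 in I/R. As for Mir770 and Mir3070a, I/R replicates 2 and 3 were far above sham and I/R replicate 1 was close to it. The log2 fold changes were 1.85 ± 0.49 for Mir1188 (adjusted p of 0.169 in edgeR and 0.0245 in DESeq2) and 1.88 ± 0.62 for Mir341 (0.216 in edgeR). Mir370 had 6, 7 and 8 counts in sham and 8, 7 and 6 in I/R, with no difference to see at this depth.

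The 7 snoRNA rows differed by position too. AF357425, inside fantom3_9430047F21, had 21, 24 and 12 counts in sham and 39, 41 and 42 in I/R, and AF357426 had 16, 13 and 10 and 32, 26 and 27. Both were higher in every I/R library, with log2 fold changes of 1.10 ± 0.35 and 1.12 ± 0.37 (SE) and adjusted p of 0.205 and 0.217 in edgeR. AF357359 had the highest level of the 7 per length, 84.7 RPKM in sham and 102 RPKM in I/R, and its counts were 113, 150 and 109 in sham and 141, 147 and 141 in I/R, with a log2 fold change of 0.21 ± 0.20 (0.631 in edgeR). The groups of DQ267100, DQ267101, AF357355 and DQ267102 overlapped too, with log2 fold changes without the filter from 0.14 for DQ267100 to 0.86 for DQ267101, which had 34 counts in all. Outside the locus 1.06% of 94 snoRNA rows were higher without overlap and 8.51% lower.

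Between Rian and Mirg lay 4 clones and 17 miRNA rows, of which 3 and 8 were higher in every I/R library. The clone fantom3_E130013L12 had 2.09, 2.49 and 2.15 CPM in sham against 3.15, 4.40 and 5.38 CPM in I/R, and differed by 0.94 ± 0.22 (SE) on the log2 scale, where the adjusted p was 0.150 in edgeR and 0.0158 in DESeq2. Mir882 had 10, 13 and 10 counts in sham and 27, 21 and 29 in I/R, and lay clear of sham in all 3 (1.22 ± 0.39, adjusted p of 0.210 in edgeR). The 12 miRNA rows from Mir411 to Mir654 all had log2 fold changes above 0, with a median of 1.07 without the filter, and 6 of them were higher without overlap. This cluster had few reads: the 12 rows held between 49 and 102 summed counts each. Mir411 had 4, 2 and 4 counts in sham and 5, 26 and 12 in I/R, and Mir329 had 0, 5 and 7 and 9, 22 and 20. Mir494 had 4, 3 and 5 and 7, 16 and 15. In these 3 rows I/R replicate 1 was again the lowest I/R library. Mir1193, Mir666 and Mir667 were also higher without overlap, with log2 fold changes of 1.42 ± 0.49, 0.77 ± 0.44 and 0.98 ± 0.41 (adjusted p of 0.225, 0.420 and 0.293 in edgeR). Mir1197, Mir323, Mir758, Mir679, Mir376c and Mir654 overlapped, and their log2 fold changes without the filter ran from 0.06 for Mir323 to 1.65 for Mir679.

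The 14 miRNA rows from Mir382 to Mir3072, just before and within Mirg, had a median log2 fold change of 0.10 without the filter, positive for 9 and negative for 5. The boundary between this set and the 12 rows before it was chosen after the values were seen. Mir668 had 18, 22 and 29 counts in sham and 60, 36 and 49 in I/R, Mir410 had 26, 42 and 13 and 51, 72 and 45, Mir453 had 29, 14 and 20 and 40, 51 and 39, and Mir541 had 10, 15 and 10 and 31, 24 and 17. These 4 rows were higher in every I/R library, by 1.07 ± 0.32, 1.06 ± 0.40, 1.06 ± 0.34 and 1.03 ± 0.42 on the log2 scale (adjusted p of 0.196, 0.253, 0.212 and 0.280 in edgeR). Mir412 went the other way, with 23, 17 and 25 counts in sham and 13, 6 and 12 in I/R. Its I/R libraries were all below sham, with a log2 fold change of -1.05 ± 0.44 and an adjusted p of 0.290 in edgeR. Mir369, its neighbour on the chromosome, had 20, 24 and 16 counts in sham and 30, 13 and 20 in I/R, and overlapped. Mir382, Mir134, Mir485, Mir154, Mir496, Mir377, Mir409 and Mir3072 overlapped too, between -1.26 for Mir154 and 0.87 for Mir377 without the filter. Over all 39 miRNA rows of the locus 19 were higher and 1 lower without overlap, beside 5.97% and 3.73% of 134 miRNA rows elsewhere. The 16 with at least 100 summed counts all had log2 fold changes above 0, with a median of 1.06, and the other 23 had a median of 0.79.

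Mirg (chr12:109734981-109749457, plus strand) is the host RNA of the last miRNA cluster. It had 10.97, 10.85 and 10.91 CPM in sham against 22.75, 18.11 and 18.64 CPM in I/R. The sham libraries were nearly equal and I/R replicate 1 was the highest, unlike in Meg3. The fitted log2 fold change was 0.86 ± 0.12 (SE), with an adjusted p of 0.123 in edgeR and 1.5e-05 in DESeq2. The log2 ratio of Mirg to Meg3 was -5.88 ± 0.09 in sham and -5.75 ± 0.45 in I/R (SD, n = 3 each), a difference of 0.13 with a p of 1.0 in a two-sided exact permutation test, also after adjustment over 4 ratios. That difference turned to -0.13 without I/R replicate 1. The clones fantom3_2810474H01 and fantom3_C130007E11 at the end of Mirg were also highest in I/R replicate 1, with log2 fold changes of 0.78 ± 0.16 and 0.81 ± 0.14 (adjusted p of 0.145 and 0.123 in edgeR).

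The clone fantom3_5330411G14 in the middle of Mirg (chr12:109737780-109741503, plus strand) was the row that rose past the edgeR threshold. Its counts were 274, 266 and 330 in sham and 719, 877 and 670 in I/R, and I/R replicate 2 was the highest, unlike in the Mirg row and its end clones. On the log2 scale the difference was 1.40 ± 0.15 (SE) and the adjusted p was 0.0423 in edgeR. The call was lost without sham replicate 1 (0.491), sham replicate 3 (0.213) or I/R replicate 3 (0.124). Within Mirg its level per length was 3.11 RPKM in sham, below the 8.24 RPKM of Mirg, and 8.49 RPKM in I/R, against 15.6 RPKM. Relative to Mirg its log2 ratio was -0.86 ± 0.16 in sham and -0.32 ± 0.36 in I/R (SD, n = 3 each). There I/R replicate 1 lay just above the highest sham value, and the comparison was chosen after its values were seen. Of the 3 miRNA hairpins it holds, Mir154 had 9, 3 and 10 counts in sham and 5, 1 and 3 in I/R, Mir496 had 8, 7 and 8 and 12, 9 and 3, and Mir377 had 3, 3 and 8 and 13, 10 and 3. All 3 overlapped between groups.

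Dio3 (chr12:110279230-110281097, plus strand) encodes the deiodinase that inactivates thyroid hormone. It had 3.74, 2.12 and 3.82 CPM in sham against 1.97, 1.21 and 1.37 CPM in I/R. All I/R libraries were below all sham libraries, but sham replicate 2 and I/R replicate 1 were close. The means were 3.23 ± 0.960 and 1.51 ± 0.398 CPM (SD, n = 3 each). The fitted log2 fold change was -1.09 ± 0.27 (SE), with an adjusted p of 0.157 in edgeR and 0.0204 in DESeq2. In edgeR it was 0.0354 without I/R replicate 1. Its antisense RNA Dio3os (chr12:110275385-110278068, minus strand) had 10, 4 and 15 counts in sham and 3, 10 and 7 in I/R, and overlapped. The log2 ratio of Dio3 to Dlk1, the genes at the 2 ends of the locus, was -0.32 ± 0.41 in sham and -1.91 ± 0.46 in I/R (SD, n = 3 each), with no overlap, and was chosen after its values were seen. The log2 ratio of Dlk1 to Meg3 was -7.36 ± 0.15 in sham and -7.57 ± 0.57 in I/R, a difference of -0.20 with a p of 0.9 in a two-sided exact permutation test (1.0 adjusted over 4 ratios), and turned to 0.12 without I/R replicate 2.

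Per length, the order of the long genes in sham was Rian (107 ± 10.5 RPKM), Meg3 (48.9 ± 2.40), Mirg (8.24 ± 0.126), 6430411K18Rik (4.94 ± 1.21), Rtl1 (4.59 ± 0.704), Dio3 (1.70 ± 0.519), Dlk1 (0.795 ± 0.0464) and Dio3os (0.154 ± 0.0876; SD, n = 3 each). 6430411K18Rik and Rtl1 were within their spread of each other, and the other neighbours were further apart than their spread. In I/R the order began with Rian (113 ± 10.96) and Meg3 (84.8 ± 14.9), followed by Mirg (15.6 ± 2.12), 6430411K18Rik (13.8 ± 3.07) and Rtl1 (9.34 ± 0.471), and Dlk1 (1.23 ± 0.388) stood above Dio3 (0.828 ± 0.225) and Dio3os (0.113 ± 0.0610). There Mirg and 6430411K18Rik, and Dlk1 and Dio3, were within their spread of each other.

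**Figure D4:**
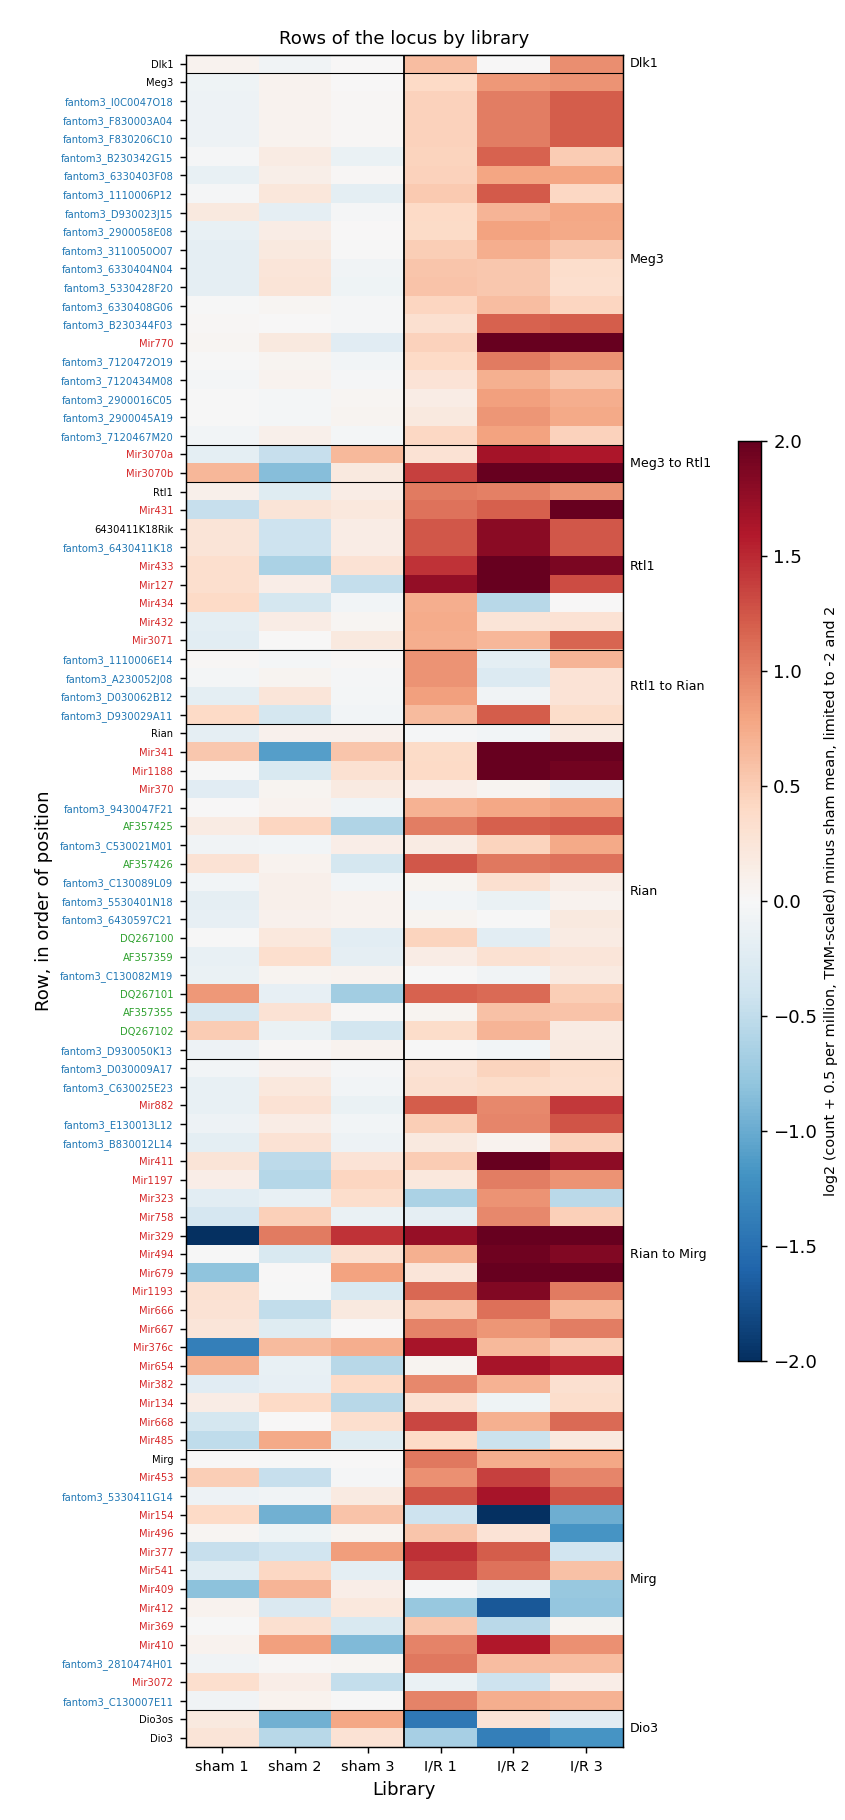
Heat map of the 91 rows in order of position (vertical) in the 6 libraries (horizontal). Color gives the log2 of the scaled count (0.5 added) minus the sham mean of the row, limited to -2 and 2, and row names are black for long genes, blue for clones, red for miRNAs and green for snoRNAs. I/R replicate 1 is paler than I/R replicates 2 and 3 at Mir770, Mir341, Mir1188 and the first Meg3 clones, and redder at Mirg and its end clones.

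The heat map of rows by library shows that the I/R libraries differed among themselves along the locus. I/R replicate 1 was the highest of the I/R libraries in 27 of the 91 rows, in 2 of the 20 rows of the Meg3 span, in 3 of the 4 clones between Rtl1 and Rian, and in 10 of the 14 rows of the Mirg span.

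Genes that act on the locus or its products were taken from 3 lists. Of 20 regulators of imprints and of the locus, 14 had a positive and 6 a negative log2 fold change, with a median of 0.04, and none passed in edgeR. The smallest p belonged to Mef2d, Tet3, Mef2c and Dnmt3a. Mef2d, whose protein family drives the miRNA cluster of the locus in neurons, had 26.7, 23.3 and 26.5 CPM in sham against 31.7, 27.6 and 32.8 CPM in I/R, above sham in all 3 (0.27 ± 0.11, adjusted p of 0.291 in edgeR). Tet3, which oxidises methylated cytosine, had 0.30 ± 0.14 (0.330), Mef2c, of the same family as Mef2d, had -0.23 ± 0.12 (0.370), and Dnmt3a, a DNA methyltransferase, had 0.25 ± 0.16 (0.477 in edgeR). Of 13 genes of miRNA processing, 11 were positive and 2 negative, with a median of 0.09, and none passed in edgeR. Ddx17, a helicase of the Drosha complex, had 214, 242 and 216 CPM in sham against 275, 305 and 297 CPM in I/R. Its groups were well apart, at 0.38 ± 0.09 with an adjusted p of 0.153 in edgeR and 0.0570 in DESeq2. Ago2, the Argonaute that cuts target RNAs, had 0.39 ± 0.13 (0.222 in edgeR), Ago3 0.21 ± 0.13 (0.458) and Xpo5, which exports hairpins from the nucleus, -0.15 ± 0.10 (0.483 in edgeR). Of 17 partners of Dlk1, Dio3 and Rtl1, 15 matched a row and 14 were tested, 6 positive and 8 negative, with a median of -0.04, and none passed in edgeR. An unadjusted p under 0.05 was found for Mef2d in the first list, Ddx17 and Ago2 in the second, and Notch1 (0.34 ± 0.15) and Notch3 (0.34 ± 0.14), named after their values were seen, in the third, all higher. This is 1 of 20, 2 of 13 and 2 of 14 genes tested, beside 8.73% of all rows tested.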

How the data were processed

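Brain RNA was rRNA-depleted and sequenced as read pairs, per the labels' protocols, on build mm10, per the submitters' processing notes. The sources used here do not give the aligner, counter, annotation or strand setting. The deposited counts are whole read counts for each row. The deposited RPKM values equalled counts divided by row length in kilobases and by the column total in units of 1e6 for 100% of values over 0.01 (relative tolerance 0.001). The authors' deposited comparison holds group mean RPKM, log2 fold changes, p-values and q-values, from a test that the sources used here do not give.

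The whole table of counts was fitted with edgeR 4.0.16 in R 4.3.3 (TMM factors, filterByExpr, robust quasi-likelihood F test, two-sided), adjusted by Benjamini-Hochberg over the 40170 rows tested, with 0.05 as threshold. The fit was first tested on simulated data, with changes in rows of at least 1 CPM. It recovered 65.0% of 100 rows changed 2-fold and 99.0% of 100 rows changed 4-fold. Unchanged rows made up 11.8% of the simulated calls, more than the threshold of 0.05 sets. CPM are scaled to 1e6 counts of the TMM-scaled total. A floor of 3 counts is 0.0604 to 0.0660 CPM and covers counting error only. Log2 ratios within a library were compared by exact permutation. The alternatives tried were DESeq2 1.42.0, limma-voom (limma 3.58.1), RLE or upper-quartile factors, a minimum mean of 1 CPM, no filter, no robust estimation, gene-symbol rows only, a block for the replicate number and the omission of each library. Biotypes and sequences came from RefSeq tables (GRCm38.p6), in which 37 of 39 hairpins had the coordinates of the row.

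The members, gene lists and tests were chosen with earlier results of these data known. The rule for named genes took all members with a gene symbol, the 10 clones with the smallest edgeR p, the 10 with the highest level and up to 4 genes with the smallest p of the first 2 gene lists; other clones were named after their values were seen. The filter left out 15 members with few reads, of which 9 passed it with 1 library left out. Libraries of a group differed beyond sampling noise, and each counts as 1 sample.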

Additional observations from a re-analysis of the deposited data

How the results depend on the processing

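The number of rows called by edgeR over the whole table was 1, and was 584 with DESeq2, 77 without the low-count filter, 4 with limma-voom or without robust estimation, 2 with upper-quartile factors, and 0 with gene-symbol rows only, with a mean of at least 1 CPM or with a replicate block. Single libraries left out gave between 0 and 1057. The number of locus rows with an unadjusted p under 0.05 was 52. It was 25 with gene-symbol rows only and 28 with gene rows and clones that overlap none, where fewer rows were tested. With the replicate block it was 51, and the call of fantom3_5330411G14 was lost (adjusted p = 0.196). Samples with the same replicate number did not deviate together (correlations of -0.0645, 0.0358 and 0.1075). This cannot settle whether the numbers pair the libraries, which the labels do not state. In the data, and not the design, 3 of the 6 libraries correlated best across groups with their own number, which does not settle the pairing either. Over single libraries left out, the difference in the log2 ratio of Mirg to Meg3 ran from -0.1325 to 0.2656 and that in the log2 ratio of Dlk1 to Meg3 from -0.4092 to 0.1235. Small log2 fold changes also crossed 0 when 1 library was left out: Mir434 from -0.3006 to 0.3769, Rian from -0.05586 to 0.07121, fantom3_5530401N18 from -0.1261 to 0.005692, fantom3_6430597C21 from -0.004895 to 0.1157, DQ267100 from -0.02887 to 0.3, fantom3_C130082M19 from -0.04456 to 0.08316, fantom3_D930050K13 from -0.03595 to 0.08355, Mir134 from -0.08508 to 0.3622 and Mir369 from -0.244 to 0.2999. The cause was not tested. Every other tested member kept its direction under the alternatives run. Of the 15 members left out by the filter with all libraries, 9 passed it when 1 library was left out. Of the 91 rows, 25 have under 100 summed counts and rest on few reads, and 3 libraries per group cannot give an exact permutation p below 0.1.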
